A study of Homo sapiens with 6 samples.

Results

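The clustered histone genes are the genes for the core and linker histones that lie in groups on a few chromosomes and, for the most part, are transcribed when DNA is replicated. They were taken as every row of the count table whose symbol begins with HIST1H, HIST2H, HIST3H or HIST4H, which gave 56 of 19009 genes. By cluster, 46 carried a HIST1 symbol, 6 a HIST2 symbol, 3 a HIST3 symbol and 1 a HIST4 symbol. By the histone type in the symbol, 5 were genes of linker histone H1, 15 of H2A, 16 of H2B, 10 of H3 and 10 of H4. HIST2H2BC, counted among the H2B genes, had no annotated coding sequence, and its current symbol is H2BC20P. Some genes of the clusters, such as HIST2H2AA3, HIST2H2AA4, HIST2H3A and HIST2H3C, had no row under those symbols. Numbers and shares by cluster and type therefore cover the 56 rows and not every clustered histone gene.

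Messenger RNA was sequenced in RCC10, an established human line of clear cell renal carcinoma, a tumour in which the tumour suppressor VHL is commonly lost and hypoxia-inducible factors therefore accumulate. There were 3 groups of 2 libraries, and all were RCC10 grown in DMEM with 10% fetal bovine serum. The HIF double knockout cells lacked HIF-1alpha and HIF-2alpha after lentiviral guide RNAs and puromycin, and the VHL-restored cells carried VHL from a lentivirus. The parental cells were labelled as wild-type controls, and neither a non-targeting guide nor an empty vector was among the samples analysed here. Viral transduction and, in the knockout, puromycin selection therefore cannot be told apart from the loss of HIF or the gain of VHL. The labels say neither whether the knockout is clonal nor whether the 2 libraries of a group came from different cultures, so the p-values below measure only the spread between these libraries.

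Histones H2A, H2B, H3 and H4 form the core around which DNA is wrapped, and H1 binds the linker DNA between cores. Most mRNAs from the clusters end in a short stem-loop in place of a poly(A) tail. The stem-loop is bound by SLBP and cut with the help of the U7 particle, and such mRNAs are made in S phase and degraded when replication stops. Some of the same genes also give longer transcripts that pass the stem-loop and end in a poly(A) tail, mostly in cells that are differentiated or not dividing. These libraries were made from poly(A) RNA, so the counts describe the tailed transcripts and whatever untailed RNA was carried over. A change in the amount of a histone transcript and a change in the share of it that carries a tail cannot be told apart here, and the same holds for fewer expressing cells against less RNA per cell.

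The stem-loops show which ending the mature mRNA would have in S phase. They are shown for members of the H2A, H2B and H4 types with many counts, taken from the transcripts of GENCODE release 29 (GRCh38), with the 6-base arms of the stem in capitals and the 4-base loop in lower case.

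HIST1H2AC: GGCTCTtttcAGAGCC
HIST1H2BD: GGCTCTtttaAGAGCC
HIST1H4H: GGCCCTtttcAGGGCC

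The 3 examples differ in the arms between H4 and the other types and in the last loop base of HIST1H2BD. A search of the annotated transcripts for the 16-base histone stem-loop found it in 25 of the 56 genes, in 6 forms. It was in 0.116% of all 57133 genes of that release. A miss does not mean that a gene lacks it, since many of the other transcripts end with the coding part. Those of HIST1H1C and HIST1H2BK have 642 and 381 bases, for coding lengths of 639 and 378. The form shown for HIST1H2AC was in 12 of the 25 and that shown for HIST1H4H in 5. Of the 25, 17 also had an annotated transcript that ran at least 200 bases past the stem-loop. HIST1H2AC, HIST1H4H and HIST2H2BE had transcripts that ran 1128, 1655 and 1729 bases past it.

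The promoters are shown for 5 members that the comparisons below turn on. Each run is the 250 bases before the gene's start in RefSeq (GRCh38.p14), 5′ to 3′ on the gene's own strand. Capitals mark matches on either strand to 5 motifs. They are the octamer ATTTGCAT that OCT1 (the product of POU2F1) binds, the box CCAAT that the factor NF-Y binds, and the TATA box, searched as TATAAA. The core of the HIF-binding motif was searched with A, as ACGTG, and, for the other form of its first base, as GCGTG. Neighbouring matches may overlap. The stretches are chr6:27146859-27147108 for HIST1H2BK, chr6:27132796-27133045 for HIST1H2BJ, chr1:149886683-149886932 for HIST2H2BE, chr6:26056471-26056720 for HIST1H1C and chr1:228457874-228458123 for HIST3H2A, all on the minus strand.

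HIST1H2BK: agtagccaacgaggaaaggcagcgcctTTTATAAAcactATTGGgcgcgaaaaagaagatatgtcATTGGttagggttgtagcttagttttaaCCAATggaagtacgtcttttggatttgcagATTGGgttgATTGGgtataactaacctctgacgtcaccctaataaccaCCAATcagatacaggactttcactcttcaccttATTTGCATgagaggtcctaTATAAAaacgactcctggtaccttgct
HIST1H2BJ: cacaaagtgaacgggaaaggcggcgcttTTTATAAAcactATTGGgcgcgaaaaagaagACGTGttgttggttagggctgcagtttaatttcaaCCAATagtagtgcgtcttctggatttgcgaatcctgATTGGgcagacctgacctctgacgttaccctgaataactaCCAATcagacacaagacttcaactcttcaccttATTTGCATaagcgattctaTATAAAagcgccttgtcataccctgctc
HIST2H2BE: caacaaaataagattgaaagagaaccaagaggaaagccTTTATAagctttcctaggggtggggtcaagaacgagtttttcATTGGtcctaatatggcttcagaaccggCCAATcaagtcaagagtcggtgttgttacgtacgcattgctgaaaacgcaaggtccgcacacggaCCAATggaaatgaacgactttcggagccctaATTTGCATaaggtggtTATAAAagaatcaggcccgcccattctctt
HIST1H1C: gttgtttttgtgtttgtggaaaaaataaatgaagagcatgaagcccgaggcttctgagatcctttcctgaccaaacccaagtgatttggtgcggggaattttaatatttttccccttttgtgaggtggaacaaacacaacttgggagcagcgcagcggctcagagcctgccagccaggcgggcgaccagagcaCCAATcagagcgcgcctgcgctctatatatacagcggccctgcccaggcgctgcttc
HIST3H2A: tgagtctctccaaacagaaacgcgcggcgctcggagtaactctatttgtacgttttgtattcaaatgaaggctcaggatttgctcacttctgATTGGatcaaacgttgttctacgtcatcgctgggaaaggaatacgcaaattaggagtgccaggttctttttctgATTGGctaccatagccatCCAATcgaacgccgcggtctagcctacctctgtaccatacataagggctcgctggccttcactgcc

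The 3 H2B promoters had a layout in common. An octamer began 46, 47 and 46 bases before the start of HIST1H2BK, HIST1H2BJ and HIST2H2BE, and a TATAAA began 27, 28 and 30 bases before it. HIST1H1C held a CCAAT 57 bases before its start and no match to the other 4 motifs, and HIST3H2A held CCAAT alone, the nearest at 66 bases. Promoter entries were matched for 48 of the 56 genes. Among these, the octamer was in 47.9%, against 1.66% of all 27305 promoters of the same length, with 11 of 15 H2B, 11 of 14 H2A, 1 of 6 H3, 0 of 8 H4 and 0 of 5 H1 promoters holding it. These promoters are not all separate. The H3 promoter with the octamer, that of HIST1H3D, is the same stretch as that of HIST1H2AD. Neighbours read in opposite directions, such as HIST1H2AC and HIST1H2BC, can cover nearly the same DNA, so that 1 octamer counts for both. CCAAT was in 85.4% of the 48 and 33.0% of all promoters, and TATAAA in 70.8% and 11.1%. The HIF core with A was in 16.7% of the 48, against 18.7% of all promoters, and the core with G in 10.4%, against 31.9%. A match describes letters in the window and not a bound site.

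Total counts were 29929116 and 26085121 in the HIF double knockout, 27890958 and 27776717 in the VHL-restored cells and 29454611 and 22248126 in the parental cells, so that 3 counts in a library correspond to 0.101 to 0.132 CPM (counts scaled to the size of the library). EPAS1, which encodes HIF-2alpha, had a mean of 46.2 CPM in the double knockout, 366 CPM in the VHL-restored cells and 350.5 CPM in the parental cells, and HIF1A a mean of 30.6 CPM in the double knockout, 295 CPM in the VHL-restored cells and 71.2 CPM in the parental cells. VHL averaged 45.3 CPM in the double knockout, 687 CPM in the VHL-restored cells and 39.1 CPM in the parental cells. The renal transcription factor gene PAX8 averaged 363 CPM in the double knockout, 407 CPM in VHL-restored cells and 301 CPM in the parental cells. The 8 renal markers measured, PAX8 among them, summed to 6780 to 6790 CPM in the double knockout. Their sum was 5760 to 6110 CPM in the VHL-restored cells and 8460 to 8490 CPM in the parental cells. VIM made up most of each sum, averaging 4717 CPM in the double knockout, 3113 CPM in VHL-restored and 7021 CPM in parental cells. Against parental cells, 5 of the 8 rose and 2 fell in the double knockout, while 54.1% of all genes were called. In VHL-restored cells 3 rose and 3 fell, while 54.2% of all genes were called. CA9, a common marker of clear cell carcinoma, had no count in the transduced groups and 0.022 CPM in parental cells, from 1 count. NDUFA4L2, another of the 8, averaged 0.017 CPM in the double knockout, 0.143 CPM in the VHL-restored cells and 58.7 CPM in the parental cells. Of the 6 leukocyte, 3 endothelial and 4 fibroblast markers measured, 2, 2 and 1 had no count, namely PTPRC, CD3E, PECAM1, KDR and COL3A1. The fibroblast markers summed to 3.69 to 3.76 CPM in the double knockout, 22.6 to 24.3 CPM in the VHL-restored cells and 17.3 to 17.4 CPM in the parental cells, and the leukocyte markers, nearly all of it CD68, to 21.2 to 22.5 CPM in the double knockout, 23.4 to 26.4 CPM in the VHL-restored cells and 60.6 to 64.7 CPM in the parental cells. The part of these shifts in the histone results was not tested.

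Few histone genes held nearly all histone counts. Of the 56 genes, 2 (HIST1H3I and HIST3H3) had no count, 36 had 1 to 59 counts over the 6 libraries and 18 had at least 60. The members summed to 19726 counts. HIST1H1C, which encodes linker histone H1.2, held 31.9% of them and HIST1H2BK, which encodes an H2B, 29.3%, and the 9 members with the most counts together held 91.9%. By type, H2B genes held 46.9% of the counts, H1 genes 32.4%, H2A genes 13.5%, H4 genes 4.97% and H3 genes 2.2%. Per kilobase of coding length, the mean level over the 6 libraries was 93.6 CPM for HIST1H2BK, 60.2 for HIST1H1C, 30.3 for HIST1H2BD, 27.6 for HIST1H2AC, 14.8 for HIST1H4H and 11.6 for HIST2H2BE. Transcripts that extend past the coding part add reads to these values.

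Annotation and counts were set side by side. A gene was called long where GENCODE release 29 gave it a transcript over 800 bases or RefSeq a span over 1000 bases. The 22 long genes held 63.9% of the histone counts, with a median of 116.5 counts, and 13 of them had at least 60. Among them, HIST1H2BK (5778 counts), HIST1H2BD (1859), HIST1H2BC (293) and HIST1H3D (167) were long by RefSeq span alone. Their longest GENCODE transcripts had 381, 789, 659 and 411 bases, so most of the share of the long genes rests on the span rule. The 34 compact genes held 36.1%, with a median of 18.5 counts, and 5 of them had at least 60. Of the 7127 counts of the compact genes, 6295 belonged to HIST1H1C, whose single annotated transcript of 642 bases was close to its coding length of 639. These thresholds were chosen after the values were seen.

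**Figure D1:**
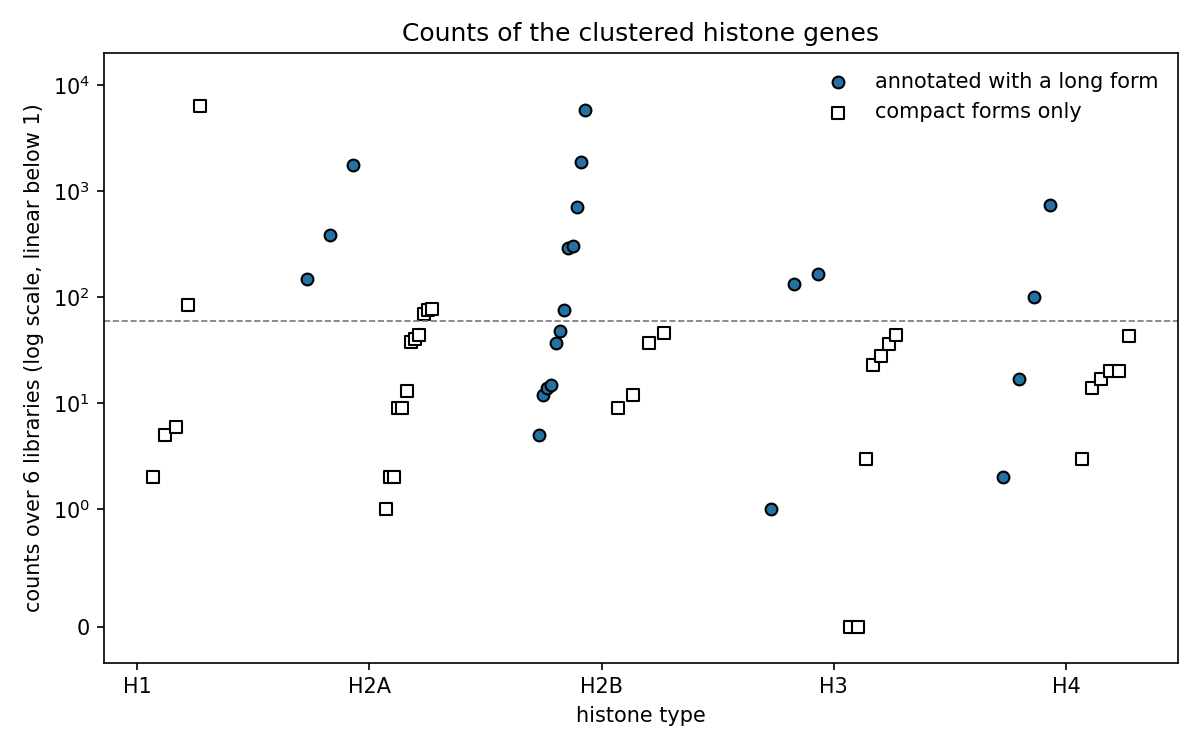
Counts summed over the 6 libraries for each of the 56 clustered histone genes, by histone type (x axis), on a y axis that is logarithmic above 1 and linear below; filled circles are genes annotated with a long form, open squares genes with compact forms, and the dashed line lies at 60 counts. HIST1H1C, at 6295 counts, is the compact gene that stands far above the rest, and 5 of the 34 compact genes lie above the line, against 13 of the 22 long ones.

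Near-identical copies limit what some counts can mean, since the labels do not say how reads that match several genes were handled. The share of a gene's 50-base windows found in transcripts of other genes was 0% for HIST1H1C and HIST1H4H, 0.4% for HIST1H2AC, 0.6% for HIST3H2A, 4.6% for HIST1H2BJ, 5.4% for HIST1H2BD, 6.6% for HIST1H2BC and 8.1% for HIST2H2BE. It was 74.1% for HIST1H2BK, and 61.4% of all windows of HIST1H2BK were found in the H2B copy H2BFS. HIST1H3D and HIST1H2AD shared 100% and 98.0% of their windows with the overlapping gene AL031777.3, and HIST1H2AM shared 86.3% with the overlapping HIST1H3J. The levels of these 4 genes are uncertain. Other genes called below are less affected but not free of it. HIST2H2AC shared 30.5% of its windows, and HIST1H2BN overlaps HIST1H2AL on its own strand and HIST1H2AK on the other. The median share over the 56 genes was 1.75%, and 10 genes reached 50%. These shares depend on how far the annotated transcripts extend. The longest had 381 bases for HIST1H2BK, whose RefSeq span is 8566, against 2163 for HIST1H4H and 2194 for HIST2H2BE.

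The histone genes as a group were highest in the double knockout and lowest in the VHL-restored cells. Their CPM summed to 192 and 200.3 in the double knockout libraries, 71.5 and 76.0 in the VHL-restored libraries and 89.4 and 95.4 in the parental libraries. Both double knockout libraries lay above the other 4, and the VHL-restored and parental libraries did not overlap. Without HIST1H1C and HIST1H2BK, the sums were 63.0 and 67.6 CPM in the double knockout, 33.3 and 34.0 CPM in the VHL-restored cells and 40.3 and 43.8 CPM in the parental cells. The 38 genes under 60 counts summed to 3.93 and 4.62 CPM in the double knockout, 4.26 and 4.86 CPM in the VHL-restored cells and 4.14 and 2.87 CPM in the parental cells, so that the groups overlapped.

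The separation of the groups differed between the sums of the histone types. In H1, H2B, H2A and H4 the top gene held most counts, so each sum largely followed that gene. HIST1H1C held 6295 of the 6392 H1 counts and HIST1H2BK 5778 of the 9255 H2B counts. HIST1H2AC held 1755 of the 2664 H2A counts and HIST1H4H 744 of the 981 H4 counts. H2B genes summed to 98.7 and 106 CPM in the double knockout, 26.1 and 27.9 CPM in the VHL-restored cells and 38.5 and 43.8 CPM in the parental cells. H4 genes summed to 8.38 and 8.82 CPM in the double knockout, 3.61 and 3.50 CPM in the VHL-restored cells and 5.83 and 6.04 CPM in the parental cells. In both types all 3 groups were apart. H1 genes summed to 61.6 and 58.8 CPM in the double knockout, 26.4 and 29.02 CPM in the VHL-restored cells and 28.7 and 29.8 CPM in the parental cells. H2A genes summed to 21.0 and 23.4 CPM in the double knockout, 13.4 and 12.9 CPM in the VHL-restored cells and 13.9 and 13.2 CPM in the parental cells. For both types the double knockout stood apart while the other groups overlapped. H3 genes summed to 2.60 and 3.57 CPM in the double knockout, 2.08 and 2.61 CPM in the VHL-restored cells and 2.56 and 2.60 CPM in the parental cells, with all groups overlapping.

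Loss of HIF-1alpha and HIF-2alpha was set against parental cells first. In this comparison 11 of the 54 histone genes with any count rose and 0 fell, and 43 did not pass the test (edgeR quasi-likelihood test, Benjamini-Hochberg adjusted p under 0.05 over 18273 genes). The called share was 20.4% of the histone genes, against 54.1% of all genes tested, of which 26.6% rose and 27.5% fell. Calls depend on depth: of the 18 histone genes with at least 60 counts 10 rose and 0 fell, against 34.5% and 35.1% of all 13702 genes with as many counts, and of genes with fewer counts 7.81% were called. The median log2 fold change was 0.26 over the 54 histone genes and 0 over all genes. It was 0.54 over the 42 histone genes with more than 3 counts in 1 of the groups, with genes absent from a group set at their bound.

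HIST1H2BK had 68.6 and 74.5 CPM in the double knockout, 12.4 and 13.8 CPM in the VHL-restored cells and 20.8 and 22.3 CPM in the parental cells. All 3 groups were apart, with the double knockout far above the others. It rose 3.33-fold against parental cells, a log2 fold change of 1.73 ± 0.08 (SE; edgeR adjusted p = 3.43e-18), with the uncertainty from shared sequence given above.

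HIST1H1C had 60.8 and 58.2 CPM in the double knockout, 25.8 and 28.2 CPM in the VHL-restored cells and 28.4 and 29.4 CPM in the parental cells. The double knockout libraries were about level with each other and above all others. The rise against parental cells was 2.06-fold, a log2 fold change of 1.04 ± 0.08 (SE; edgeR adjusted p = 2.77e-13).

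HIST3H2A, which encodes an H2A from the small cluster on chromosome 1, had 3.42 and 3.57 CPM in the double knockout, 2.36 and 2.90 CPM in the VHL-restored cells and 0.809 and 0.838 CPM in the parental cells. Here the parental cells were the low group. The rise in the double knockout was 4.23-fold, a log2 fold change of 2.08 ± 0.24 (SE; edgeR adjusted p = 1.22e-09).

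Among the members with the next most counts, the rises were smaller. HIST1H2BD had 16.8 and 18.7 CPM in the double knockout, 6.98 and 7.15 CPM in the VHL-restored cells and 8.46 and 10.6 CPM in the parental cells, and its log2 fold change against parental cells was 0.91 ± 0.11 (SE; edgeR adjusted p = 1.38e-08). HIST1H2BJ had 3.35 and 3.18 CPM in the double knockout, 0.680 and 0.608 CPM in the VHL-restored cells and 1.55 and 1.9 CPM in the parental cells, with a log2 fold change of 0.94 ± 0.20 (SE; edgeR adjusted p = 9.7e-05). In each of these genes the 3 groups were apart, in the order of HIST1H2BK. HIST1H2AC had 14.3 and 15.9 CPM in the double knockout, 7.76 and 6.90 CPM in the VHL-restored cells and 10.2 and 9.48 CPM in the parental cells, a log2 fold change of 0.61 ± 0.11 (SE; edgeR adjusted p = 8.82e-06). HIST1H4H, the H4 gene with the most counts, had 6.60 and 7.54 CPM in the double knockout, 1.93 and 2.25 CPM in the VHL-restored cells and 4.72 and 4.41 CPM in the parental cells, a log2 fold change of 0.62 ± 0.14 (SE; edgeR adjusted p = 0.000183). Again no group overlapped another in these genes. HIST1H2BD overlaps AL353759.1 on the other strand, and the labels do not say whether the counting used strand.

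Calls on genes of lower level rested on fewer reads. HIST1H2BC had 2.63 and 2.84 CPM in the double knockout, 0.930 and 1.22 CPM in the VHL-restored cells and 1.35 and 1.9 CPM in the parental cells, and its rise (log2 fold change 0.78, edgeR adjusted p = 0.00214) was not called by DESeq2 or without parental library 1 (adjusted p up to 0.115). HIST1H1E, which encodes H1.4, had 0.786 and 0.466 CPM in the double knockout, 0.536 and 0.750 CPM in the VHL-restored cells and 0.202 and 0.309 CPM in the parental cells. HIST1H2AE had 0.855 and 0.583 CPM in the double knockout, 0.465 and 0.429 CPM in the VHL-restored cells and 0.303 and 0.132 CPM in the parental cells. In both genes the parental libraries were the lowest. Against parental cells, the log2 fold change in the double knockout was 1.34 for HIST1H1E (edgeR adjusted p = 0.0225) and 1.65 for HIST1H2AE (0.00512). Both calls ended under DESeq2, without double knockout library 1 and without parental library 2, and that of HIST1H1E also without parental library 1, with adjusted p up to 0.271 for HIST1H1E and 0.097 for HIST1H2AE. HIST1H2AL had 3 and 4 counts in the double knockout and none in the parental cells, at least 2.22-fold higher against 3 counts over the group. Its call (edgeR adjusted p = 0.0445) ended in 9 of 10 alternatives.

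HIST2H2BE, an H2B gene with a long tailed transcript, was not called. It had 5.37 and 4.31 CPM in the double knockout, 3.54 and 3.29 CPM in the VHL-restored cells and 4.31 and 5.42 CPM in the parental cells. The double knockout and parental libraries overlapped, with a log2 fold change of 0.01 ± 0.15 (SE; edgeR adjusted p = 0.981) that turned to -0.16 without double knockout library 1 or parental library 1. Its promoter, printed above, has the octamer and TATAAA at nearly the places they have in HIST1H2BK and HIST1H2BJ. The part of this layout in the changes was not tested. HIST1H3D, with a log2 fold change of 0.59 ± 0.28 (SE; edgeR adjusted p = 0.0763), did not pass either, though it did with only the groups compared (adjusted p = 0.0441). Its log2 fold change was 0.36 without double knockout library 2, 0.25 without parental library 1 and 0.95 without parental library 2. HIST1H2AG, HIST1H3H, HIST4H4, HIST1H2AM and HIST1H2AD passed in no comparison, at log2 fold changes from -0.51 to 0.63 against parental cells in the double knockout.

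**Figure D2:**
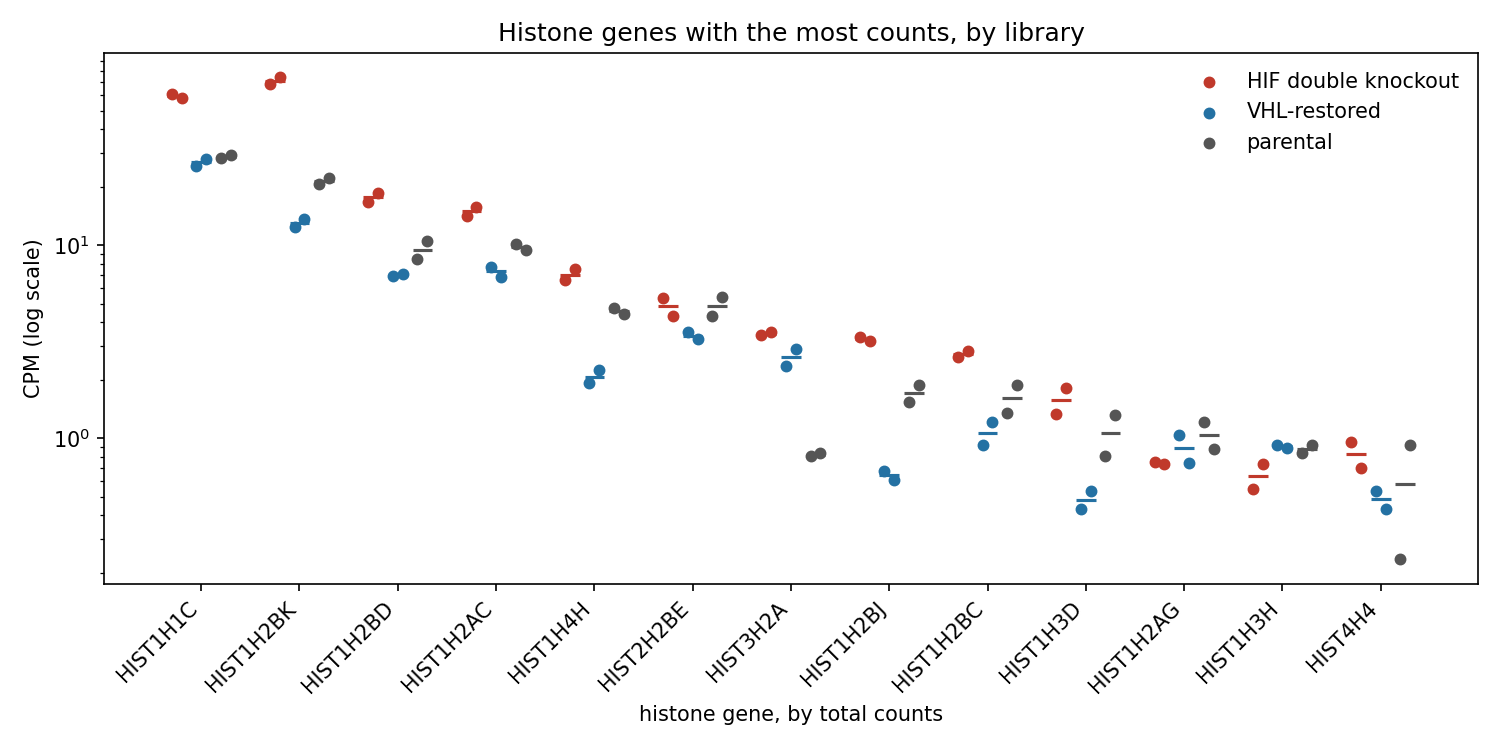
CPM on a logarithmic y axis for the 13 clustered histone genes with the most counts (x axis), in the HIF double knockout (red), VHL-restored (blue) and parental (grey) libraries; points are libraries and bars the mean of 2. The double knockout is the highest group and the VHL-restored group the lowest in HIST1H2BK, HIST1H2BD, HIST1H2AC, HIST1H4H and HIST1H2BJ, while in HIST3H2A the parental libraries are lowest, at 0.809 and 0.838 CPM.

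Restoring VHL was then set against the same parental libraries, which both comparisons share. Of the 54 histone genes 3 rose and 7 fell, and 44 did not pass. The called share was 18.5%, against 54.2% of all genes tested, of which 26.5% rose and 27.7% fell. Of the 18 genes with at least 60 counts 2 rose and 7 fell, against 34.1% and 35.5% of all genes with as many counts. The median log2 fold change over the histone genes was -0.08, against 0 over all genes, and -0.09 over the 42 genes with more than 3 counts in 1 of the groups.

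HIST1H2BJ fell most among the genes called lower, to 0.680 and 0.608 CPM in VHL-restored cells, against 1.55 and 1.9 CPM in parental cells. That was a 2.64-fold drop, a log2 fold change of -1.40 ± 0.28 (SE; edgeR adjusted p = 4.39e-05). HIST1H4H was 2.19-fold lower in VHL-restored than in parental cells, a log2 fold change of -1.13 ± 0.17 (SE; edgeR adjusted p = 7.43e-07). HIST1H2BK was 1.64-fold lower, a log2 fold change of -0.71 ± 0.09 (SE; edgeR adjusted p = 8.24e-08). For these 3 genes the call held in all 11 alternatives.

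The other 4 drops lost their call in some alternatives. The log2 fold change in VHL-restored against parental cells was -0.43 ± 0.12 for HIST1H2AC (SE; edgeR adjusted p = 0.00206) and -0.42 ± 0.12 for HIST1H2BD (SE; 0.00439). The call of HIST1H2AC ended without parental library 1 (adjusted p = 0.0799) and that of HIST1H2BD without parental library 2 (adjusted p = 0.171). HIST2H2BE, at -0.50 ± 0.16 (SE; edgeR adjusted p = 0.0085), and HIST1H3D, at -1.09 ± 0.37 (SE; edgeR adjusted p = 0.0104), were not called by DESeq2 or without parental library 2, and HIST1H3D also not without VHL-restored library 1, with adjusted p up to 0.203 and 0.198. HIST1H3D had 1.33 and 1.83 CPM in the double knockout, 0.429 and 0.536 CPM in the VHL-restored cells and 0.809 and 1.32 CPM in the parental cells. The linker histone HIST1H1C, the gene with the most counts, differed by a log2 fold change of -0.10 ± 0.08 (SE; edgeR adjusted p = 0.343), and its VHL-restored and parental libraries lay close together without overlap. HIST1H2BC, at -0.57 ± 0.26 (SE; edgeR adjusted p = 0.0611), missed the threshold, and its call changed in 3 of the 11 alternatives.

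The genes that rose on restoring VHL were HIST3H2A, HIST1H1E and HIST2H2AC. HIST3H2A rose 3.19-fold over parental cells, a log2 fold change of 1.67 ± 0.25 (SE; edgeR adjusted p = 2.61e-07), and it was the histone gene of at least 60 counts whose call was higher in both transduced groups in all 11 alternatives. HIST1H1E had a log2 fold change of 1.36 ± 0.52 (SE; edgeR adjusted p = 0.0201), lost under DESeq2 and without VHL-restored library 2 or either parental library (adjusted p up to 0.199). HIST2H2AC had 4 and 4 counts in the double knockout, 9 and 16 in the VHL-restored cells and 2 and 3 in the parental cells. Its rise over parental cells was a log2 fold change of 2.17 (edgeR adjusted p = 0.0105), lost under DESeq2, without VHL-restored library 2 and without parental library 1 (adjusted p up to 0.163).

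The transduced groups were compared directly as well. Between HIF double knockout and VHL-restored cells, 11 of 54 histone genes were higher and 2 lower in the double knockout, and 41 did not pass. This was 24.1% called, against 56.0% of all genes tested, of which 28.0% were higher and 28.0% lower. Of the 18 genes with at least 60 counts 11 were higher and 0 lower, against 36.1% and 35.6% of all genes with as many counts. The median log2 fold change was 0.26 over the histone genes and 0 over all genes, and 0.46 over the 42 genes with more than 3 counts in 1 of the groups.

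The widest differences were in H2B and H4 genes. HIST1H2BK was 5.45-fold higher in the double knockout than in VHL-restored cells (log2 fold change 2.45 ± 0.09 SE, edgeR adjusted p = 2.64e-21), HIST1H2BJ 5.05-fold (2.34 ± 0.26 SE, 3.3e-10) and HIST1H4H 3.37-fold (1.75 ± 0.16 SE, 1.96e-11). HIST1H3D, HIST1H2BC, HIST1H2BD, HIST1H1C and HIST1H2AC followed at log2 fold changes from 1.04 to 1.69, each called in all 11 alternatives. HIST2H2BE (log2 fold change 0.51, edgeR adjusted p = 0.00598) lost its call under DESeq2 and without double knockout library 1. HIST3H2A (log2 fold change 0.41, edgeR adjusted p = 0.0405) lost its call in 8 of 11 alternatives and HIST1H2BN (1.25, 0.0266) in 5. Of the genes lower in the double knockout, HIST1H4A had no count there, 6 and 7 counts in the VHL-restored cells and 4 and 0 in the parental cells. It was at least 4.26-fold lower than in VHL-restored cells against 3 counts over the group (edgeR adjusted p = 0.00681), and the call ended on leaving out either double knockout library. HIST2H2AC, the other gene called lower (log2 fold change -1.59, edgeR adjusted p = 0.0354), lost its call in 5 of 10 alternatives.

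**Figure D3:**
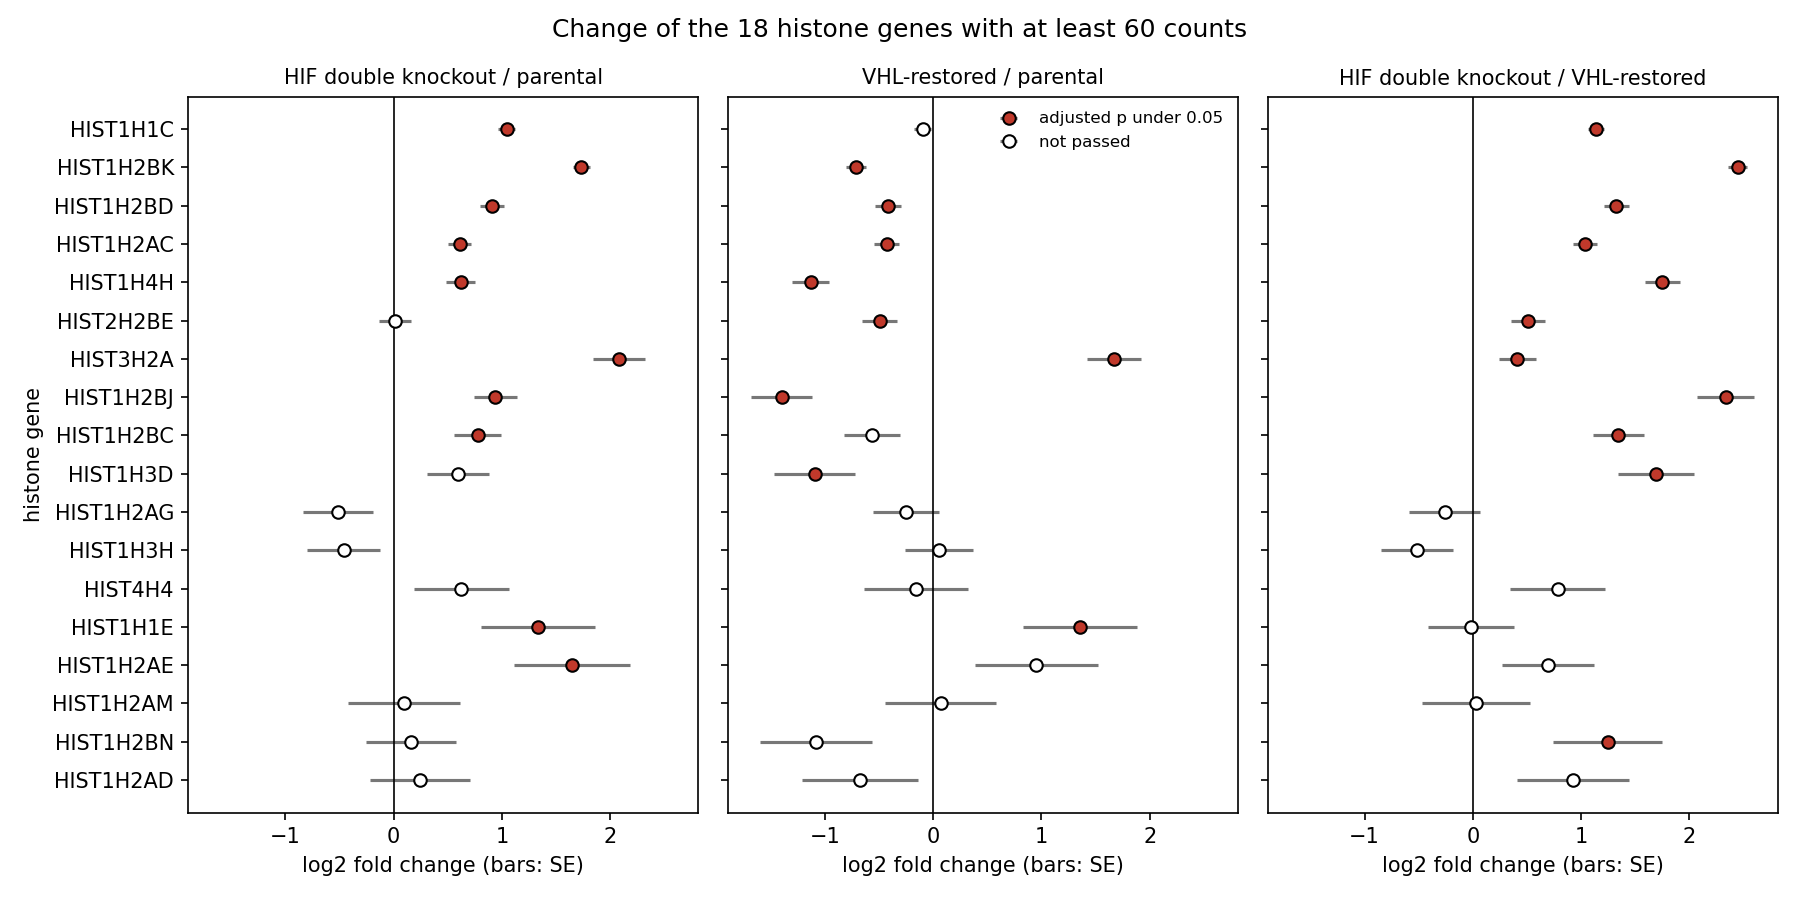
Log2 fold change with its SE (x axis) of the 18 clustered histone genes with at least 60 counts (y axis, most counts at the top), for the HIF double knockout against parental cells (left), VHL-restored against parental cells (middle) and double knockout against VHL-restored cells (right); filled points passed an edgeR adjusted p of 0.05. Filled points lie on the right alone in the left and right panels, 10 and 11 of them, and on both sides in the middle panel, where 7 are lower and 2 higher.

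A list of 7 histone genes known from other work to give tailed mRNA was read separately, namely HIST1H1C, HIST1H2AC, HIST1H2BD, HIST1H2BJ, HIST1H2BK, HIST2H2BE and HIST1H4H. All are among the 8 members with the most counts, and the list was chosen with earlier results of these data known. HIST3H2A, the remaining one of the 8, has an annotated transcript that ran 390 bases past the stem-loop. It rose against parental cells in both the double knockout and VHL-restored cells, by log2 fold changes of 2.08 and 1.67. In the double knockout against parental cells 6 of the 7 listed genes rose, 0 fell and HIST2H2BE did not pass. Their median log2 fold change was 0.91, against 0 over all genes. In VHL-restored against parental cells 0 rose, 6 fell and HIST1H1C did not pass, with a median of -0.50, again against 0 over all genes. All 7 were higher in the double knockout than in VHL-restored cells, with a median of 1.33, against 0 over all genes. Of all genes with at least 60 counts, 34.5% rose in the first comparison, 35.5% fell in the second and 36.1% were higher in the third.

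Histone genes often lie in pairs that share the DNA between their starts and are read in opposite directions. In GENCODE release 29, 11 such head-to-head pairs were found among the members, with starts 219 to 357 bases apart. The starts in RefSeq, which the printed promoters use, can differ from these. Both partners had at least 60 counts in 2 pairs, 1 partner in 6 and neither in 3. HIST1H2BK had 5778 counts and its partner HIST1H2AH 9, HIST2H2BE 710 and HIST2H2AC 38, and HIST3H2A 382 and HIST3H2BB 5. In the pair of HIST1H2BC and HIST1H2AC, with 293 and 1755 counts, both rose in the double knockout. HIST1H2BJ and HIST1H2AG had 305 and 147 counts, and the stretch printed for HIST1H2BJ covers the DNA between their starts in RefSeq. HIST1H2BJ was called in all 3 comparisons, while HIST1H2AG had 0.752 and 0.738 CPM in the double knockout, 1.04 and 0.750 CPM in the VHL-restored cells and 1.21 and 0.882 CPM in the parental cells and passed in none. The difference between partners in their response was not tested.

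**Figure D4:**
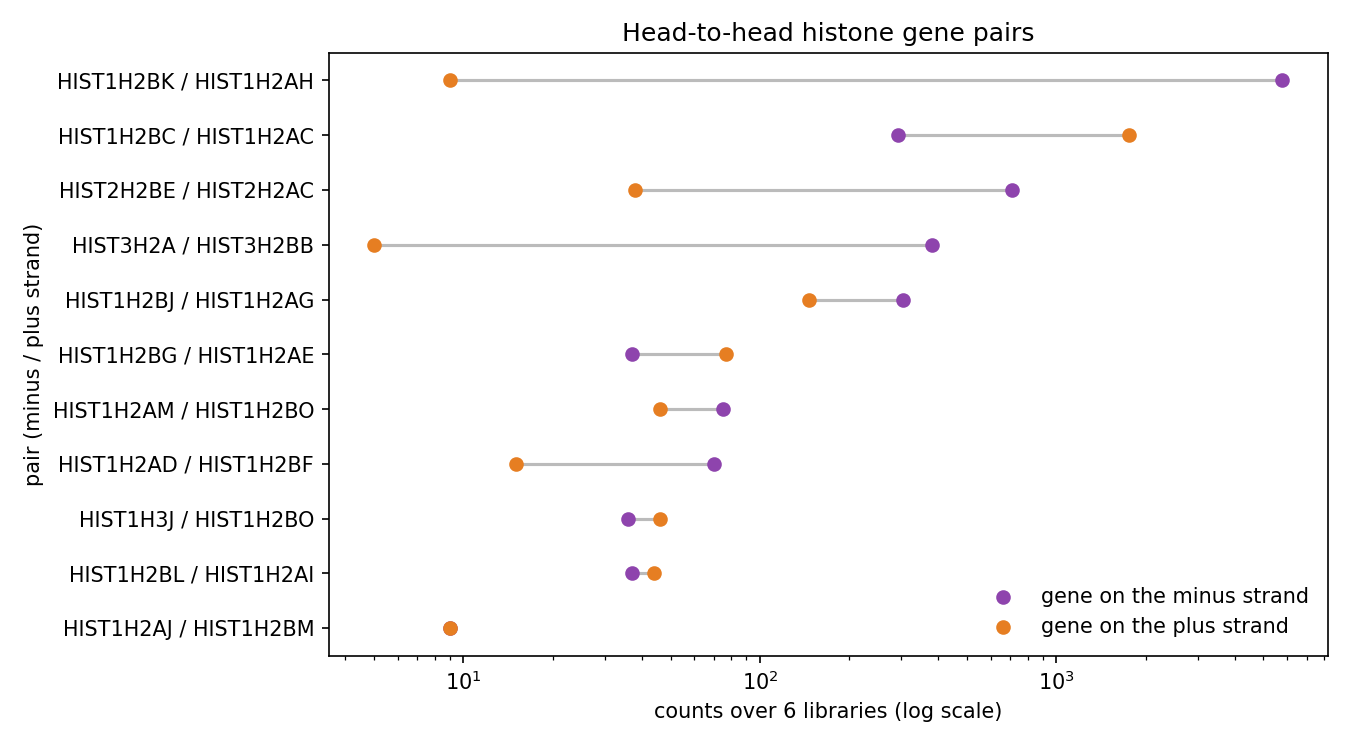
Counts over the 6 libraries (logarithmic x axis) of both partners of the 11 head-to-head histone gene pairs (y axis), with the gene on the minus strand in purple and that on the plus strand in orange, joined by a line; both partners of the lowest pair have 9 counts. The partners of HIST1H2BK, HIST2H2BE and HIST3H2A, at 9, 38 and 5 counts, lie far below them.

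Genes that make, process and use histones were read from 5 lists, to show the rest of histone supply beside the clusters. Their counts are to be read against the 54.1% of all genes called in the double knockout and 54.2% in VHL-restored cells, each against parental cells, and against 69.6% in both comparisons among genes with at least 60 counts. Of 16 genes of histone mRNA 3′ end processing and decay, 7 rose and 2 fell in the double knockout against parental cells (median log2 fold change 0.12), and 10 rose and 1 fell in VHL-restored against parental cells (median 0.48), with medians of 0 over all genes. LSM10, a subunit of the U7 particle, rose in both, by log2 fold changes of 1.47 in the double knockout (edgeR adjusted p = 6.82e-15) and 1.06 in VHL-restored cells. CSTF2, a cleavage factor shared with the poly(A) pathway, rose in the double knockout (0.66, edgeR adjusted p = 7.92e-09). SYMPK, the scaffold of the cleavage complex, and UPF1, a helicase of histone mRNA decay, rose in VHL-restored cells by 1.05 and 0.77 (edgeR adjusted p = 6.27e-15 and 3.19e-12). SLBP, named here after its values were seen, had a log2 fold change of 0.27 in the double knockout (edgeR adjusted p = 0.00083) and 0.04 in VHL-restored cells, where it did not pass.

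Of 9 genes of histone gene transcription, 2 rose and 6 fell in the double knockout (median log2 fold change -0.27), and 4 rose and 3 fell in VHL-restored cells (median 0.14). CCNE1, the cyclin of the kinase that activates NPAT, rose in the double knockout by 1.24 (edgeR adjusted p = 6.3e-11), and CRAMP1L, a regulator of H1 genes, fell by 0.77 on the log2 scale (edgeR adjusted p = 2.11e-10). NPAT, the coactivator of the clusters, fell in VHL-restored cells by 0.59 on the log2 scale (edgeR adjusted p = 1.3e-06), and YY1, a zinc finger transcription factor, rose by 0.37 (edgeR adjusted p = 5.02e-05). All of these are against parental cells.

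Histone variants encoded outside the clusters were split. Of 9 with counts 4 rose and 4 fell in the double knockout (median log2 fold change 0.16), and 4 rose and 3 fell in VHL-restored cells (median -0.06). H2AFZ, which encodes H2A.Z, rose by 0.76 in the double knockout (edgeR adjusted p = 1.34e-12) and H2AFY, which encodes macroH2A, by 0.50 (edgeR adjusted p = 7.35e-09). In VHL-restored cells H2AFX, the H2A of DNA damage signalling, rose by 0.52 (edgeR adjusted p = 6.22e-09), and H1FX, a linker histone variant, fell by 0.55 on the log2 scale (edgeR adjusted p = 1.3e-08). H1F0, another linker histone variant, was at 0 in every library.

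Of 15 histone chaperones, 6 rose and 4 fell in the double knockout (median log2 fold change 0.05), and 7 rose and 4 fell in VHL-restored cells (median 0.10). CHAF1A, a subunit of the factor that loads H3 and H4 at replication, rose in both, by 0.45 in the double knockout (edgeR adjusted p = 1.17e-06) and 0.93 in VHL-restored cells (edgeR adjusted p = 2.28e-13). The chaperones called in the double knockout numbered 5 without double knockout library 1 or parental library 2 and 6 without parental library 1. Of 30 genes of S phase DNA synthesis, 13 rose and 9 fell in the double knockout (median 0.12), and 20 rose and 6 fell in VHL-restored cells (median 0.41). PCNA, the sliding clamp, rose by 0.68 in the double knockout (edgeR adjusted p = 1.09e-11). MCM3 and MCM5, subunits of the replicative helicase, rose in VHL-restored cells by 1.18 and 0.71 (edgeR adjusted p = 3.1e-17 and 9.58e-12). Between the transduced groups 6 of the 30 S phase genes were higher and 16 lower in the double knockout than in VHL-restored cells, with a median log2 fold change of -0.30. Beside them, 11 of the 54 histone genes were higher and 2 lower. In this comparison 28.0% of all genes tested were higher and 28.0% lower, and 36.1% and 35.6% of genes with at least 60 counts. The part of the cell cycle in the histone results was not tested.

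**Figure D5:**
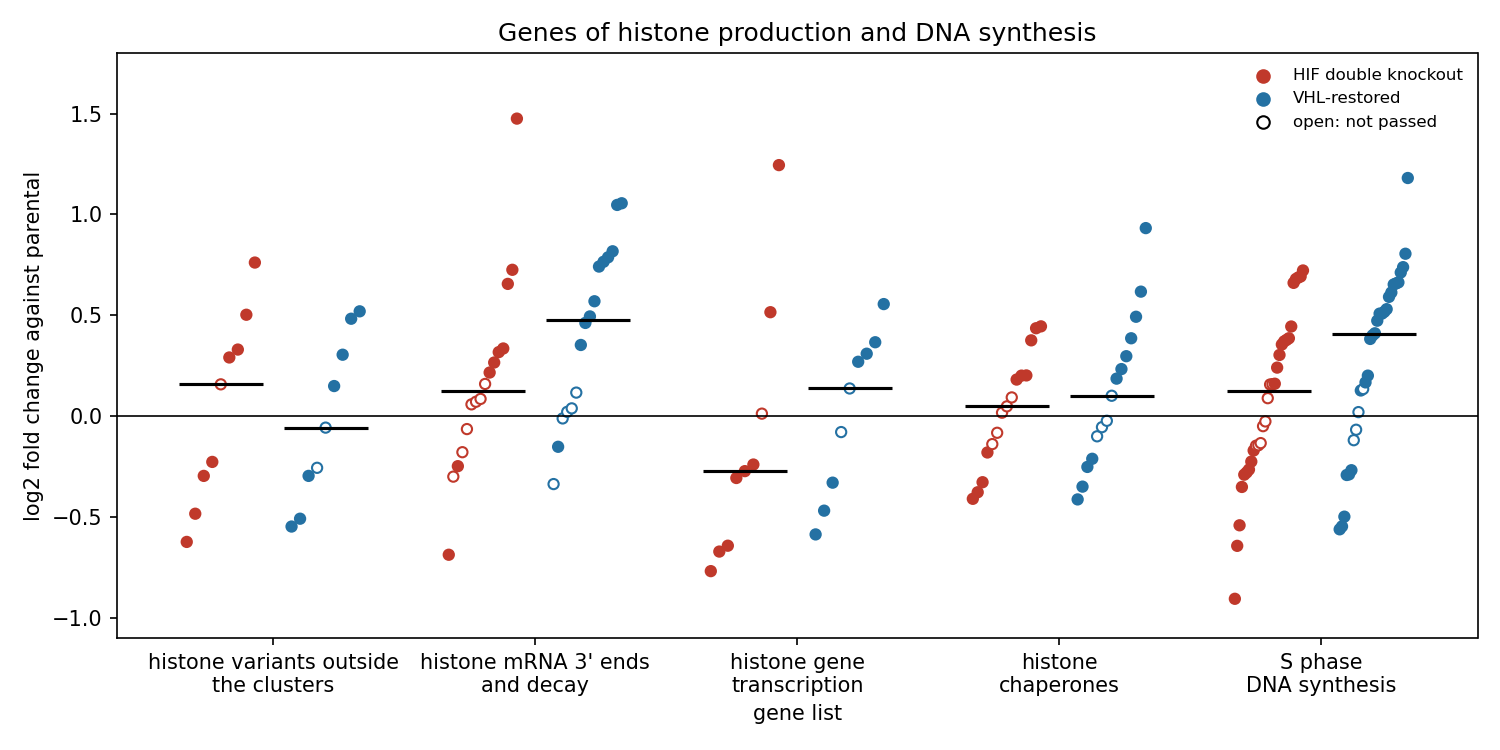
Log2 fold change against parental cells (y axis) of the genes of 5 lists around histone supply (x axis), in the HIF double knockout (red) and in VHL-restored cells (blue); each point is a gene, open points did not pass an edgeR adjusted p of 0.05, and black bars are the medians of the list. The medians of the S phase list are 0.12 in the double knockout and 0.41 in VHL-restored cells, and those of histone gene transcription -0.27 and 0.14.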

How the data were processed

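The authors deposited a table of whole-number counts per gene symbol, with 1 column for each of the 6 libraries. The table is named as normalized, yet every value is a whole number and the columns sum to different totals, so they were treated as raw counts. HISAT2 2.2.1 and featureCounts 2.0.8 are named by the submitters' processing notes beside Trimmomatic 0.39, FastQC 0.74 and limma 3.58.1, with no settings. The notes give both hg38 and hg19 without a role, and no label gives the strandedness or the handling of reads that match several genes.

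Groups were taken from the labels. The 18273 genes with at least 1 count in any library were fitted together with edgeR 4.0.16 in R 4.3.3 (TMM scaling with factors of 0.977 to 1.02, a mean per group, the quasi-likelihood test, prior count 0.125), with Benjamini-Hochberg adjustment per comparison at 0.05. CPM are counts scaled to the TMM library size, and SE is a Wald error from the same fit. The procedure was tested on simulated data. DESeq2 1.42.0, filterByExpr, median centring, a replicate block, fits of only the groups compared and leaving out each library were the alternatives. Depth sets a floor of 3 counts per library, which covers counting error only.

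Members were matched through Ensembl identifiers to RefSeq (GRCh38.p14) and GENCODE release 29 for names, transcripts and promoters, of which 54 and 48 of the 56 matched a RefSeq gene and a promoter. No promoter entry was matched for HIST1H2AH, HIST1H3I, HIST1H3J, HIST1H4A, HIST1H4C and HIST2H2BC among others. Coordinates are those of that reference, since the build behind the counts is not settled. Genes named are those past the threshold, the 10 with the highest mean CPM and, of each list, those with the smallest p-values, and others are said to be chosen after their values were seen. The histone genes and the lists were chosen with earlier results of these data known.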

Additional observations from a re-analysis of the deposited data

How the results depend on the processing

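Of the 11 histone genes called in the HIF double knockout against parental cells, 7 were called by DESeq2, and of the 10 called in VHL-restored against parental cells, 6, in each case all among the calls of edgeR. Leaving out 1 library at a time gave 8 to 11, 6 to 10 and 9 to 12 histone genes called in the double knockout against parental cells, in VHL-restored against parental cells and between the transduced groups, against 11, 10 and 13, the lowest of these without parental library 2 (6). The log2 fold change of HIST2H2BE in the double knockout against parental cells turned to -0.16 without double knockout library 1 and without parental library 1, and passed in neither case. With edgeR's filter on low counts and with only the groups compared, 12 histone genes were called in the double knockout against parental cells, 1 of them lower (HIST2H2BC), with HIST1H2BO gained under the first and HIST1H3D under the second. Scaling moved the median of all genes by at most 0.0177. Libraries with the same number did not all deviate together (correlations of 0.0219, 0.17 and -0.00629 across 12664 genes), so the numbers were not taken as pairs. With the replicate block, 10, 11 and 12 histone genes were called. Genes with few counts are limited by depth, since 38 of 56 had fewer than 60 counts summed over the 6 libraries.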
